A study of Bos taurus with 34 samples.

Results

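Interferon response genes were followed in single bovine preimplantation embryos, as 9 listed genes: the effectors ISG15, MX1, MX2, IFI6 and BST2 and the interferon regulatory factors IRF1, IRF2, IRF3 and IRF9. They were found by exact gene symbol in the table of 18442 genes for blastocysts and in the table of 14878 genes for morulae. Of the 9 genes, 8 had a row in both tables, and BST2 is not analysed here. The list was drawn up by function and not from the values of these genes, but with earlier results of these data known. Polyadenylated RNA was sequenced from 34 embryos, 26 blastocysts and 8 morulae, that carried a deletion of CSF2RA, the alpha subunit of the receptor for the cytokine CSF2, or were controls. The labels name the deleted embryos CSF2KO, and they are called knockout here. There were 9 knockout blastocysts (7 females, 2 males), 17 control blastocysts (8 females, 9 males), 4 knockout morulae (3 females, 1 male) and 4 control morulae (1 female, 3 males). For all groups alike, the protocol labels name added recombinant Wnt5A and development in vitro, whereas the series title speaks of gene expression in utero, and which holds was not settled. The labels do not say which embryos shared parents or a collection, so p-values measure the spread between these embryos only.

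Interferons bind surface receptors that signal through kinases such as JAK1. IRF9 is the DNA-binding part of the complex that then switches on effector genes such as ISG15, MX1, MX2 and IFI6. IRF3 and IRF7 act upstream, where they switch on interferon genes after nucleic acid is sensed, whereas IRF1 activates and IRF2 mostly represses genes with interferon response elements. In ruminants the trophectoderm of the embryo secretes interferon tau, the signal for maternal recognition of pregnancy, and the endometrium and blood leukocytes of the mother respond to it by raising ISG15, MX1 and MX2.

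Reads in genes ran from 44879 to 17598170 per blastocyst, with medians of 254758 in knockouts and 878069 in controls. In morulae they ran from 43679 to 1526852, with medians of 87893 in knockouts and 314121.5 in controls. Knockout libraries were therefore shallower at both stages, and single reads weigh more in them. Some libraries stood apart. Control blastocyst 12 had 2791 detected genes, the fewest of all, and no reads for the embryonic genes CDX2, GATA3, POU5F1 and NANOG. Knockout morula 21 had no reads for CDX2, GATA3 and POU5F1 either. Both kept reads of other markers from the same lists. Control blastocyst 12 had reads of 2 of the 7 listed trophectoderm markers, GATA2 and KRT8, and of 1 inner cell mass marker. Knockout morula 21 had reads of GATA2, KRT8 and KRT18 and of 1 inner cell mass marker. The deleted gene does not check the labels at this depth. CSF2RA had 2 reads over the knockout blastocysts and 2 over the control blastocysts, and it had no row in the table of morulae.

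The effectors were read rarely, and the factors IRF1 and IRF3 in nearly every embryo. Of 34 embryos, 12 had no read of ISG15, MX1, MX2 or IFI6, and 3 had reads of all of them. In blastocysts ISG15 was detected in 6 of 26 embryos, MX1 in 9, MX2 in 7 and IFI6 in 11. IRF1 was detected in 26 blastocysts, IRF3 in 25, IRF9 in 21 and IRF2 in 8. In morulae ISG15 was detected in 2 of 8 embryos, MX1, MX2, IFI6 and IRF9 in 3 each, IRF2 in 4, and IRF1 and IRF3 in 7 each. Levels below are RPKM, a read density scaled to library size, which the authors' tables take over the whole gene with its introns. A low RPKM of a long gene such as IRF2, with a span of 83741 bases, is not comparable with that of ISG15, with 1038 bases. A level of 0 is therefore a lack of reads at this depth, and fewer cells and less RNA per cell cannot be told apart in whole-embryo RNA.

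**Figure D1:**
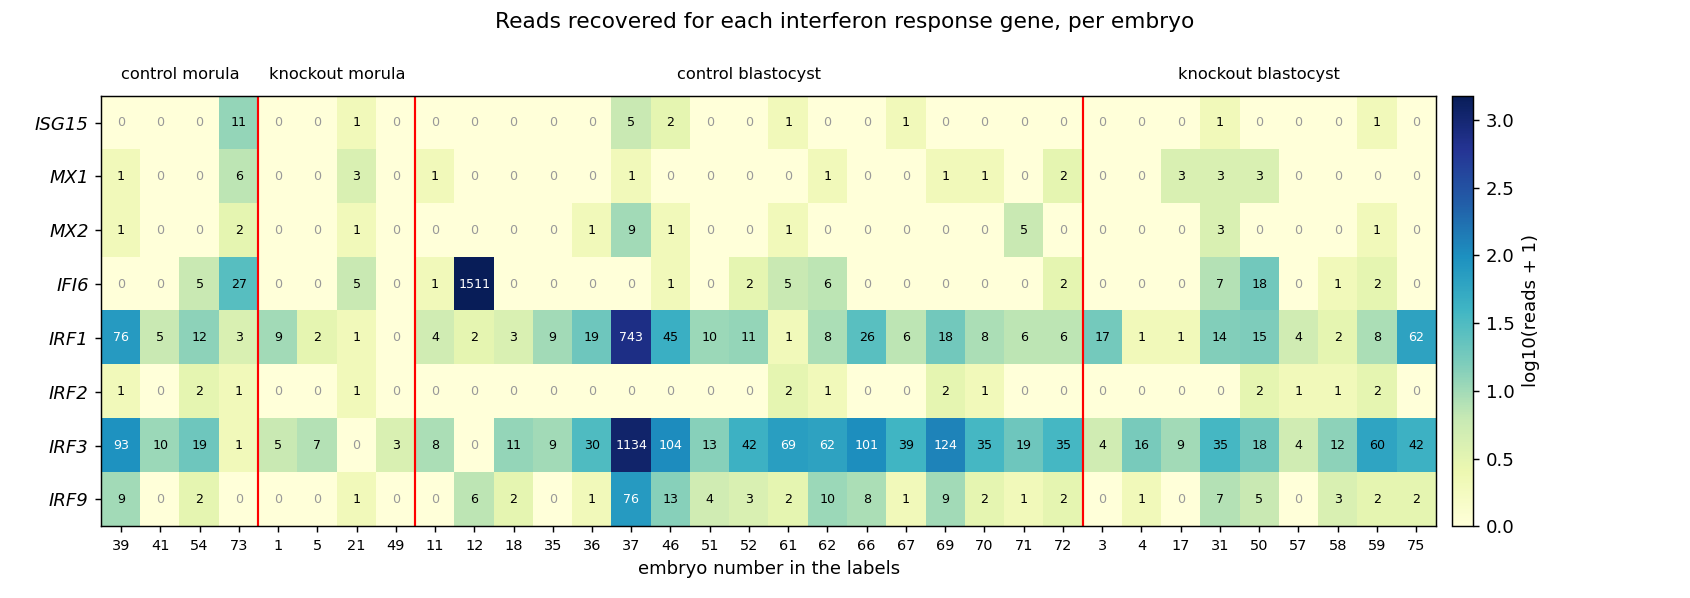
Recovered reads of the 8 genes (rows) in each of the 34 embryos (columns, by group and embryo number), with the count printed in each cell and colour on a log10(reads + 1) scale. IRF1 and IRF3 have reads in nearly every column, and the effectors have large counts in few columns, led by the 1511 reads of IFI6 in control blastocyst 12.

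ISG15 encodes a ubiquitin-like protein that is joined to other proteins after interferon. The gene ENSBTAG00000014707 lies on chromosome 16 at 51464069 to 51465107 of ARS-UCD1.2. In control blastocysts its level was 0 in the lowest and in the median embryo and 1.16 RPKM in the highest, embryo 46, which had 2 reads. In knockout blastocysts it was again 0 in the lowest and the median embryo and 1.88 RPKM in the highest, embryo 31, on 1 read. The positive embryos were few in both genotypes and their ranges overlapped. The means were 0.320 ± 0.671 RPKM in knockouts (SD, n = 9) and 0.196 ± 0.398 RPKM in controls (SD, n = 17). The difference was smaller than the spread between embryos. The fitted change in log2(RPKM + 1), knockout minus control, was 0.03 ± 0.20 (SE; limma, adjusted p = 0.969).

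In morulae ISG15 had 11 reads in control 73, at 109 RPKM, and 1 read in knockout 21, at 24.5 RPKM. The other 3 controls and the other 3 knockouts had none. In the shallowest morula, knockout 49, a count of 0 allows up to 65.0 RPKM, the level of 3 reads, so the knockouts could hold levels well above those of the deeper controls without being seen. The fitted change was −2.61 ± 1.57 (SE; limma, adjusted p = 0.729). It was 0 without control 73 and −5.22 without knockout 1. These are the only female control and the only male knockout. With the sex term, the fit without control 73 sets knockout 1 alone against the other 3 controls. The fit without knockout 1 sets control 73 alone against the other 3 knockouts. The authors' deposited table gives a log2 fold change of −4.24 with p = 0.00844 and an FDR of 0.530.

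MX1 and MX2 encode dynamin-like GTPases that hinder viruses. They lie side by side on chromosome 1, MX1 (ENSBTAG00000030913) at 141677687 to 141706496 and MX2 (ENSBTAG00000008471) at 141621165 to 141658223, with 19464 bases between them. The genes are paralogs, and how the authors' counting treated reads that match both is not given in the sources used here. MX1 had 9 reads over the knockout blastocysts, 3 each in embryos 17, 31 and 50, and the other 6 knockouts had none. Over the controls it had 7 reads, 1 each in embryos 11, 37, 62, 69 and 70 and 2 in embryo 72. The highest levels were 0.488 RPKM in knockout 17 and 0.224 RPKM in control 11, and most embryos of both genotypes were at 0. The means were 0.0951 ± 0.168 RPKM in knockouts (SD, n = 9) and 0.0234 ± 0.0564 RPKM in controls (SD, n = 17). The fitted change of 0.08 ± 0.06 (SE; limma, adjusted p = 0.885) lay within the spread between embryos. It was 0.03 without knockout 17. The authors' deposited table gives MX1 a log2 fold change of 2.49 with p = 0.00909 and an FDR of 0.371.

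MX2 had 4 reads over the knockout blastocysts, 3 of them in embryo 31, and 17 over the controls, with 9 in embryo 37 and 5 in embryo 71. Its highest level was 0.418 RPKM, in control 71, against 0.158 RPKM in knockout 31, and the median was 0 in both genotypes. The fitted change was 0.00 ± 0.05 (SE; limma, adjusted p = 0.998). In morulae both genes followed ISG15. MX1 had 6 reads in control 73 (2.14 RPKM), 3 in knockout 21 (2.65 RPKM) and 1 in control 39 (0.0187 RPKM). MX2 had 2 reads in control 73 (0.556 RPKM), 1 in knockout 21 (0.687 RPKM) and 1 in control 39 (0.0146 RPKM). The highest embryo of each genotype had a similar level, and all other morulae were at or near 0. The fitted changes were −0.52 ± 0.54 for MX1 and −0.20 ± 0.22 for MX2 (SE; limma, adjusted p = 0.884 for both). Without control 73 they were −0.01 each, and without knockout 1 they were −1.03 and −0.39. As for ISG15, these fits rest on knockout 1 alone and on control 73 alone, respectively.

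IFI6 encodes a small membrane protein induced by type I interferon. The gene ENSBTAG00000007554 lies on chromosome 2 at 125662055 to 125665793. Control blastocyst 12 held 1511 of the 1528 control reads, 98.9%, at 416 RPKM. Among the other controls the highest level was 1.73 RPKM, in embryo 11, and the median was 0. In knockout blastocysts the lowest and the median level were 0 and the highest was 7.65 RPKM in embryo 50 on 18 reads, followed by 3.65 RPKM in embryo 31 on 7 reads. Apart from control 12, the most IFI6 was thus in 2 knockouts. The means were 1.44 ± 2.61 RPKM in knockouts (SD, n = 9) and 24.8 ± 101 RPKM in controls (SD, n = 17), or 0.381 ± 0.600 RPKM in controls without embryo 12 (SD, n = 16). Between genotypes the fit gave −0.35 ± 0.76 (SE; limma, adjusted p = 0.928), and it turned to 0.36 without control 12.

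In morulae IFI6 had 27 reads in control 73 (74.4 RPKM), 5 in control 54 (3.05 RPKM) and 5 in knockout 21 (34.1 RPKM), and none elsewhere. Its level was thus high in 1 embryo of each genotype. For IFI6 in morulae the fit gave −2.60 ± 1.60 (SE; limma, adjusted p = 0.744). It was −0.67 without control 73 and −4.53 without knockout 1. As for ISG15, these fits rest on knockout 1 alone and on control 73 alone, respectively. The authors' deposited table gives −3.24 on the log2 scale with p = 0.00149 and an FDR of 0.251.

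Relative to depth, the embryos with the most effector reads also had the most reads of leukocyte markers. Summed over ISG15, MX1, MX2 and IFI6, the counts scaled to the reads in genes (CPM) were 1692 in control blastocyst 12, 489.5 in control morula 73 and 116.4 in knockout morula 21. No other embryo exceeded 33.0 CPM, the level of knockout blastocyst 50. The summed leukocyte markers stood at 2116 CPM in control blastocyst 12, 787 CPM in control morula 73 and 268 CPM in knockout morula 21, against at most 46.8 CPM in the other 31 embryos. Of the 12 listed leukocyte markers, 10 had a row in the table of blastocysts and 8 in that of morulae. Control morula 73 had reads of 7 of them and knockout morula 21 of 4, whereas control blastocyst 12 had reads of 2.

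The marker genes differed between these embryos. In control morula 73 they were led by CD74 with 27 reads, LAPTM5 with 20 and CD14 with 11. This embryo also had 22 reads of VIM, a stromal marker, and it kept the embryonic genes CDX2 with 11 reads and GATA3 with 36. Knockout morula 21 had 15 reads of CD74 and 4 of LAPTM5. It also had 312 reads of LTF and 121 of WFDC2, secretory products of the reproductive tract epithelium. Control blastocyst 12 had 1383 reads of CD74 and 507 of TYROBP, none of LAPTM5 or CD14, and 2460 reads of LTF and 1511 of WFDC2. It had no read of ISG15, MX1 or MX2 beside its 1511 reads of IFI6, and a count of 0 there allows up to 0.107 RPKM of MX1.

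The summed markers of oviduct and uterine epithelium were 5225 CPM in knockout morula 21 and 4452 CPM in control blastocyst 12. Of the 9 markers with a row, knockout morula 21 had reads of 7. Control blastocyst 12 had reads of 3, nearly all from LTF and WFDC2, and none of OVGP1, FOXJ1, PAX8, PGR, ESR1 or MUC1. Next came knockout blastocyst 31 with 816 CPM and knockout blastocyst 50 with 618 CPM, which were also the knockout blastocysts with the most IFI6. Knockout blastocyst 57 followed with 334 CPM and had no effector read. In control morula 73 these markers came to 181 CPM. The part of such RNA in the effector levels was not tested.

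**Figure D2:**
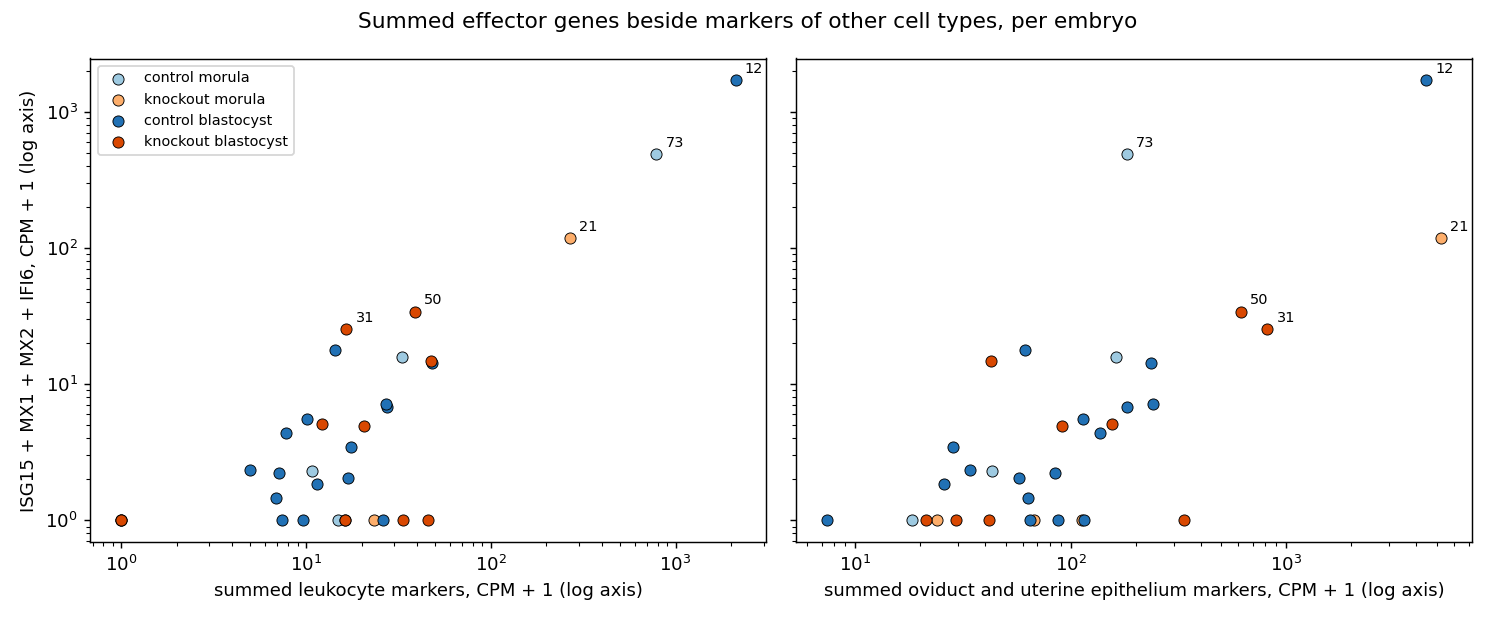
Summed CPM of ISG15, MX1, MX2 and IFI6 (vertical) against summed CPM of leukocyte markers (left) and of oviduct and uterine epithelium markers (right), each plus 1 on log axes, with 1 point per embryo coloured by group and selected embryos numbered. Control blastocyst 12, control morula 73 and knockout morula 21 lie above all others on the vertical axis and to the right of all others for leukocyte markers.

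Other effector genes showed where the reads of the morulae fell. Of the 28 genes on the wider list of interferon-stimulated effectors in the table of morulae, 6 had reads in control 73 or knockout 21 and in none of the other 6 morulae. These were 21.4% of the list, and 351 of all 14878 genes tabulated for morulae, 2.36%, had reads in the same way. The genes were picked after their values were seen, and the 2 embryos for their reads of ISG15, MX1, MX2 and IFI6. The larger share is therefore no independent support. All genes also include abundant ones, and the difference in share was not tested. RSAD2 had 4 reads in control 73, IFI44L had 2 and IFIT1 had 1. IFI27 had 2 reads in control 73 and 1 in knockout 21, and OAS1X and OAS1Z had 1 each in knockout 21. The 2 libraries together held 179909 reads in genes, against 2413234 in the other 6. Among the other 6, control 39 alone held 1526852 and knockout 49 held 43679. The part of depth in where these reads fell was not tested.

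Among the regulatory factors, IRF3 was the most even. IRF3 (ENSBTAG00000006633, chromosome 18, 56062452 to 56068031) had at least 4 reads in 25 of 26 blastocysts. In control blastocysts its level ran from 0 in embryo 12 through a median of 9.82 RPKM to 15.9 RPKM in embryo 18. In knockouts it ran from 4.03 RPKM in embryo 3 through a median of 9.19 RPKM to 21.2 RPKM in embryo 4. The groups overlapped over nearly their whole range. The means were 10.1 ± 5.06 RPKM in knockouts (SD, n = 9) and 9.52 ± 3.68 RPKM in controls (SD, n = 17), and 10.1 ± 2.83 RPKM in controls without embryo 12 (SD, n = 16). The fitted change was 0.09 ± 0.36 with a 95% interval from −0.65 to 0.84 (SE; limma, adjusted p = 0.994), and −0.23 without control 12. In control 12 a count of 0 allows up to 0.554 RPKM of IRF3, below the level of every other blastocyst.

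In control morulae IRF3 stood at 8.997, 6.32, 7.76 and 1.85 RPKM in embryos 39, 41, 54 and 73. In knockout morulae it stood at 7.19, 10.4, 0 and 12.1 RPKM in embryos 1, 5, 21 and 49. The lowest levels were thus in the same libraries, 73 and 21, that held the most effector reads, but both rest on almost no reads. Control 73 had 1 read of IRF3, with an exact Poisson 95% interval from 0.269 to 59.3 CPM, and 3 reads there would have been 5.535 RPKM. In knockout 21, 3 reads would have been 13.7 RPKM and its 0 is not informative. The fitted change was 0.41 ± 0.99 with a 95% interval from −1.81 to 2.63 (SE; limma, adjusted p = 0.971).

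IRF1 (ENSBTAG00000031231, chromosome 7, 21938614 to 21946679) was detected in every blastocyst and varied more than IRF3. In control blastocysts it ran from 0.105 RPKM in embryo 61 through a median of 2.31 RPKM to 7.79 RPKM in embryo 35. In knockouts it ran from 0.581 RPKM in embryo 17 through a median of 2.95 RPKM to 11.9 RPKM in embryo 3. The 3 highest levels of all blastocysts, 11.9, 8.58 and 8.21 RPKM, were in knockouts 3, 75 and 57, and the remaining knockouts lay within the range of the controls. The read counts behind them were 17, 62 and 4. The means were 4.28 ± 4.18 RPKM in knockouts (SD, n = 9) and 2.43 ± 2.02 RPKM in controls (SD, n = 17). IRF1 had a fitted change of 0.58 ± 0.38 with a 95% interval from −0.21 to 1.36 (SE; limma, adjusted p = 0.994), and 0.38 without knockout 3. The authors' deposited table gives p = 0.0599 and an FDR of 0.691.

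In control morulae IRF1 stood at 5.09, 2.19, 3.39 and 3.83 RPKM in embryos 39, 41, 54 and 73. In knockout morulae it stood at 8.95, 2.05, 3.16 and 0 RPKM in embryos 1, 5, 21 and 49, on 9, 2, 1 and 0 reads. Knockouts thus spread on both sides of the controls. Between the morulae the fitted change was 0.06 ± 0.76 (SE; limma, adjusted p = 0.996), and it ran from −1.05 without knockout 1 to 1.18 without control 73. As for ISG15, these fits rest on control 73 alone and on knockout 1 alone, respectively.

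IRF9 (ENSBTAG00000005816, chromosome 10, 20986934 to 20992851) shares 334 bases of its span with RNF31, so some reads could belong to either gene. In control blastocysts it ran from 0 through a median of 0.672 RPKM to 2.73 RPKM in embryo 18. In knockouts it ran from 0 through a median of 0.377 RPKM to 2.30 RPKM in embryo 31. The embryos at 0 were knockouts 3, 17 and 57 and controls 11 and 35, all on the shallower side of the libraries. The fitted change was −0.08 ± 0.25 (SE; limma, adjusted p = 0.994). In morulae IRF9 had 9 reads in control 39, 2 in control 54 and 1 in knockout 21. That 1 read set a level of 4.30 RPKM, above the 0.821 RPKM that 9 reads gave in control 39, and the fitted change was 0.12 ± 0.72 (SE; limma, adjusted p = 0.961).

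**Figure D3:**
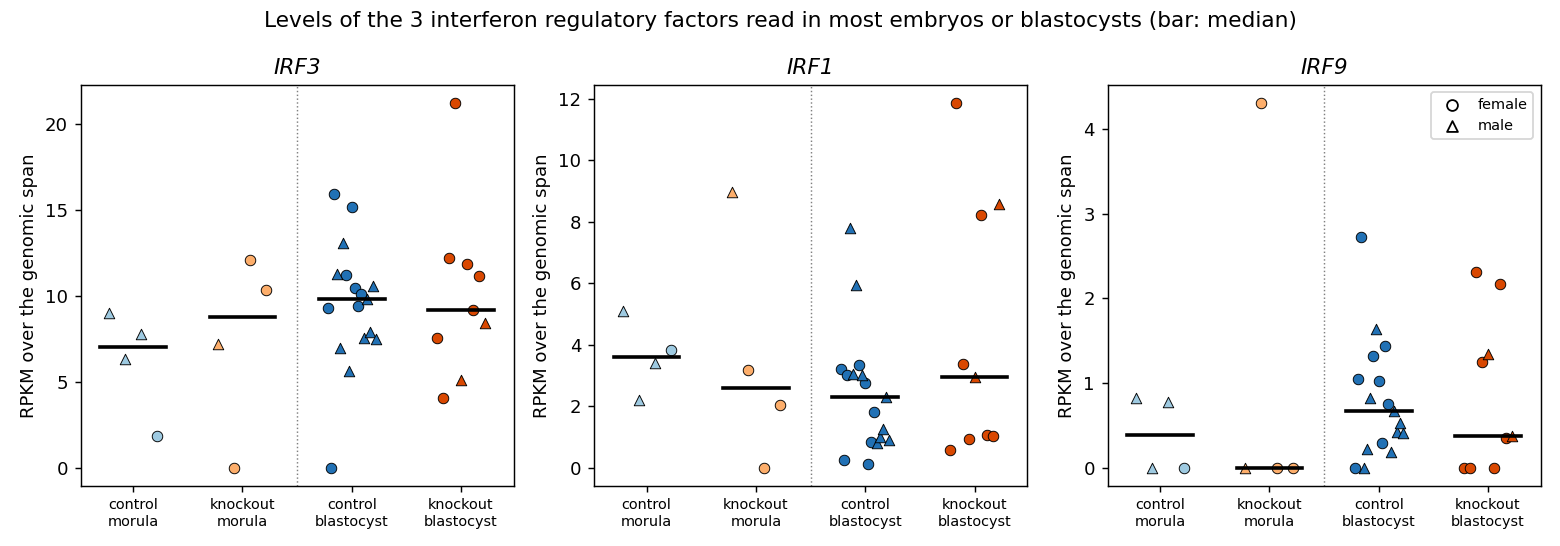
RPKM of IRF3, IRF1 and IRF9 in each embryo by group (circles females, triangles males, black bar the median). Knockouts and controls overlap at both stages, with IRF1 above 8 RPKM in knockout blastocysts 3, 57 and 75 and IRF3 at 0 in control blastocyst 12. Levels of the 2 stages were scaled separately.

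IRF2 (ENSBTAG00000010002, chromosome 27, 14872061 to 14955802) had 6 reads over the knockout blastocysts and 6 over the controls, in 4 embryos of each. No blastocyst had more than 2. The highest level was 0.198 RPKM in knockout 57, from 1 read, and among controls 0.0202 RPKM in embryo 61, from 2. The means were 0.0346 ± 0.0642 RPKM in knockouts (SD, n = 9) and 0.00329 ± 0.00644 RPKM in controls (SD, n = 17). The fitted change of 0.04 ± 0.02 (SE; limma, adjusted p = 0.885) was 0.02 without knockout 57. The authors' deposited table gives IRF2 a log2 fold change of 2.09 with p = 0.0242 and an FDR of 0.455. In morulae IRF2 had 4 reads over 3 controls and 1 read in knockout 21, with a fitted change of −0.03 ± 0.10 (SE; limma, adjusted p = 0.922).

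No member passed the test in any comparison. Called genes were 0 of 6283 between genotypes in blastocysts (0% called), 0 of 5021 between genotypes in morulae (0% called) and 0 of 6283 between sexes in blastocysts (0% called) with limma. At an unadjusted p under 0.05 these comparisons held 173, 345 and 685 genes, and limma-voom on recovered reads called 0, 1 and 0. By the authors' deposited tables, 0.0813% of genes in blastocysts and 0.181% in morulae had an FDR under 0.05, and none of the 8 members did. Of the members, 3 passed the level filter in blastocysts (IRF1, IRF3 and IRF9) and 2 in morulae (IRF1 and IRF3), and the others were fitted without it. The medians of the fitted changes of the filtered members were 0.09 in blastocysts and 0.24 in morulae, beside medians of 0.08 and −0.34 over all genes tested. Without control blastocyst 12 the median over all genes in blastocysts was −0.07. Simulated reads with the depths of the morulae gave false calls, nearly all lower in the shallower knockouts, so negative changes in morulae are less firm than positive ones.

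**Figure D4:**
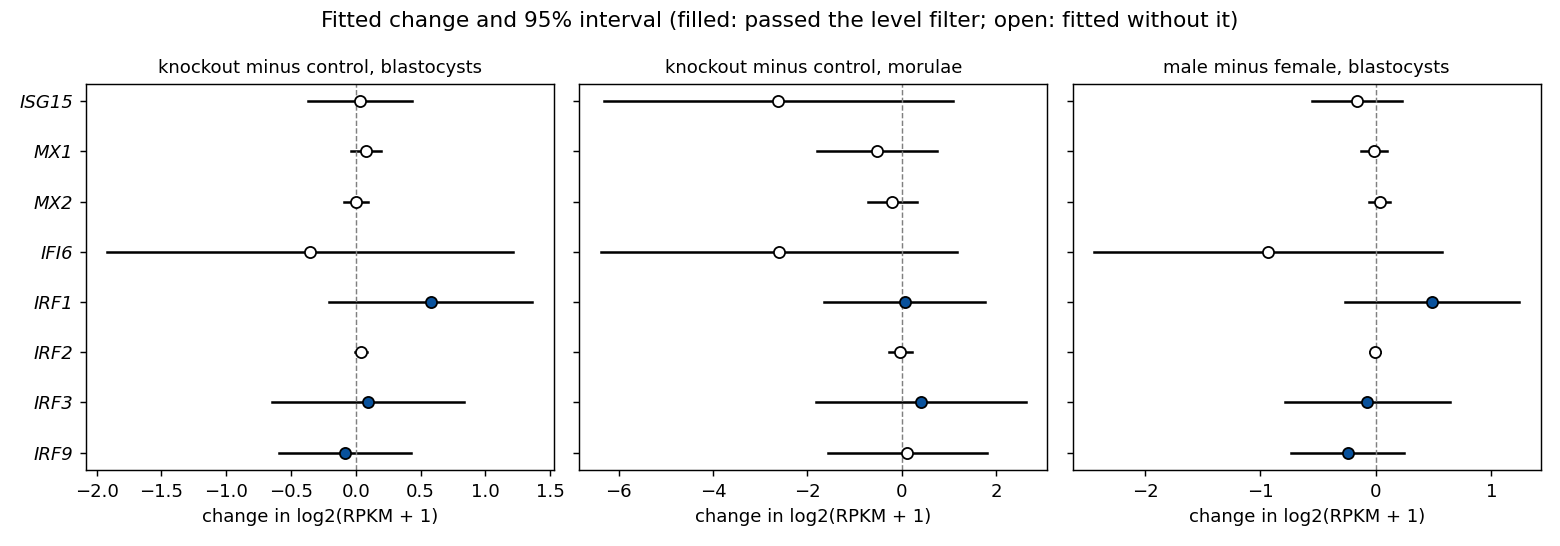
Fitted change in log2(RPKM + 1) of the 8 genes (points) with its 95% interval (lines), for knockout minus control in blastocysts and in morulae and for male minus female in blastocysts. Every interval includes 0, and the intervals of ISG15 and IFI6 in morulae are the widest, from −6.31 to 1.08 and from −6.38 to 1.18.

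Male and female blastocysts were compared because interferon tau is known to differ between the sexes in cattle. IFI6 was detected in 9 of 15 females and 2 of 11 males, knockout 50 and control 72. Control 72 is male by its title and female by its column name. The fitted change, male minus female, was −0.93 ± 0.73 (SE; limma, adjusted p = 0.753), and −0.18 without control 12. IRF1 was at 3.41 ± 2.79 RPKM in males (SD, n = 11) and 2.82 ± 3.22 RPKM in females (SD, n = 15), with a fitted change of 0.49 ± 0.37 (SE; limma, adjusted p = 0.512). Of all genes tested between the sexes, 79.8% were higher in males, with a median change of 0.26, or 0.11 without control 12. IRF3 and IRF9 had fitted changes of −0.08 ± 0.35 and −0.24 ± 0.24 (SE; limma, adjusted p = 0.913 and 0.605). ISG15, MX1, MX2 and IRF2 lay between −0.16 and 0.03, with adjusted p of 0.793 or more in limma. Both morulae with high effector counts were females, and sex nearly followed genotype in morulae, so it was not tested there.

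Of the wider pathway, 127 genes were listed, of which 91 had a row in blastocysts and 81 in morulae. The filter was passed by 29 in blastocysts and 18 in morulae, and 0 were called in either direction in the 3 comparisons. Between genotypes in blastocysts 17 were higher and 12 lower in knockouts, with a median change of 0.04, beside 0.08 over all genes. The median over all genes was −0.07 without control blastocyst 12. In morulae 5 were higher and 13 lower, with a median of −0.34, the same as over all genes. Genes are named from each list by their read totals in blastocysts.

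The embryo's own interferon, interferon tau, was read in most blastocysts. IFNT was detected in 20 of 26 and IFNT3 in 19 of 26. These genes belong to a family of near-identical copies, so reads may be split between them. IFNT had a median of 5.71 RPKM in knockout blastocysts (highest 29.1) and 8.27 RPKM in controls (highest 23.8), with a fitted change of −0.26 ± 0.70 (SE; limma, adjusted p = 0.994). In males against females IFNT3 had a fitted change of −1.03 ± 0.39 (SE; limma, adjusted p = 0.433). In morulae IFNT had 29 reads in control 39 and 10 in control 73, and IFNT3 had 26, 5 and 7 reads in controls 39, 41 and 73. Controls 41 and 54 had no read of IFNT, at 287512 and 340731 reads in genes, and control 54 had none of IFNT3. Neither gene had a read in the 4 knockout morulae, which together held 344068 reads in genes. Fewer genes of any kind were detected there, with a median of 6407.5 against 10708 in control morulae. The share of all genes with reads in control morulae only was not counted. The summed trophectoderm markers were also lower in every knockout morula than in every control morula. So were 397 of the 5021 genes tested, 7.91%, against 0.558% with every knockout above every control. The summed markers ran from 605 to 9459 CPM in knockouts (median 6970) and from 16355 to 22851 CPM in controls (median 19049). Most of these reads were of the keratins KRT8 and KRT18, with 22447 and 21005 over the morulae, and GATA2, the next, had 1400. The markers were not compared one by one, and the part of their sum in the reads of IFNT and IFNT3 was not tested. Over the knockout morulae together, 3 reads would have been 8.72 CPM. The control morulae together stood at 17.3 CPM for IFNT, from 2 of 4 embryos, and at 16.9 CPM for IFNT3, from 3 of 4. The fitted changes were −3.88 ± 1.41 and −2.23 ± 0.65 (SE; limma, adjusted p = 0.481 for both), and neither passed the level filter.

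Reads of the receptor chains and their kinases differed widely between genes. JAK1 had 1521 reads in 25 of 26 blastocysts, and IL10RB, a receptor chain of the lambda interferons, 1332 in 26. Control blastocyst 12 held 544 of the IL10RB reads, at 7.82 RPKM against at most 0.680 RPKM elsewhere, and no read of JAK1, so 788 IL10RB reads were in the other blastocysts. IFNAR1, IFNAR2 and STAT2 fall outside the naming rule and are given for their place in the pathway. STAT2 was detected in 16 of 17 control and 7 of 9 knockout blastocysts. IFNAR1 was detected in 12 of 17 and 6 of 9, and IFNAR2 in 2 of 17 and 1 of 9. The fitted change of STAT2 in blastocysts was −0.19 ± 0.23 (SE; limma, adjusted p = 0.994).

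Of the sensors and other regulators, those with the most reads are named, whereas the sensors STING1 and TLR3 were detected in 2 of 26 blastocysts each. MYD88, the adaptor of Toll-like receptors, was at a median of 4.82 RPKM in knockout and 6.24 RPKM in control blastocysts, and ADAR, which edits double-stranded RNA, at 0.536 and 0.644 RPKM. IRF7, the factor most tied to interferon genes, was read in every blastocyst, with medians of 20.1 RPKM in knockouts and 21.5 RPKM in controls. Its highest level was 98.5 RPKM in control blastocyst 12, against at most 93.5 RPKM in the other blastocysts. In morulae IRF7 stood at 16.9, 27.2, 24.96 and 36.5 RPKM in controls 39, 41, 54 and 73 and at 5.17, 7.97, 0 and 14.5 RPKM in knockouts 1, 5, 21 and 49. All controls lay above all knockouts, whose counts were 2, 3, 0 and 2 reads. So did 397 of the 5021 genes tested, 7.91%, against 0.558% with all knockouts above all controls. The summed trophectoderm markers above, mostly keratin reads, separated the same embryos in the same direction, and their part in the level of IRF7 was not tested. IRF7 had a fitted change of −2.39 ± 1.01 (SE; limma, adjusted p = 0.697). JUN, a partner of the enhanceosome at the interferon beta gene, was at medians of 51.2 RPKM in knockout and 37.4 RPKM in control blastocysts, with a fitted change of 0.82 ± 0.65 (SE; limma, adjusted p = 0.994).

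Among other effectors, IFITM3, which blocks viral entry, had medians of 31.7 RPKM in knockout and 31.9 RPKM in control blastocysts, and SAMHD1, which depletes nucleotides, 0.465 and 0.375 RPKM. Control blastocyst 12 had the highest SAMHD1 level, 2.77 RPKM, against at most 0.962 RPKM in the other blastocysts. IFITM3 was read in 25 and SAMHD1 in 26 of the 26 blastocysts, against 6 for ISG15. Of the genes that attach ISG15 to proteins, HERC5, its main ligase in humans, was detected in 23 of 26 blastocysts. It was also read in 4 of 4 control and 1 of 4 knockout morulae, with 76 of 2249075 and 2 of 344068 reads in genes. These are 33.8 CPM, with an exact Poisson 95% interval from 26.6 to 42.3, and 5.81 CPM, from 0.704 to 21, for counting error only. HERC5 did not pass the level filter, and its fitted change in morulae was −0.51 ± 0.21 (SE; limma, adjusted p = 0.487), beside the lower summed trophectoderm markers of the same knockouts. Fewer genes of any kind were detected in these knockouts, and the share of all genes with such a split was not counted. ARIH1 was at medians of 0.927 RPKM in knockout and 1.003 RPKM in control blastocysts. For antigen presentation, B2M was at 6.66 and 5.19 RPKM and PSME1, a proteasome activator induced by interferon gamma, at 2.75 and 1.98 RPKM, with fitted changes of −0.18 ± 0.45 and 0.17 ± 0.28 (SE; limma, adjusted p = 0.994 for both). Control blastocyst 12 held 424 of the 1967 B2M reads, at 65.45 RPKM against at most 20.84 RPKM in the other blastocysts.

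The genes most like each filtered member over the 26 blastocysts were taken by Spearman correlation of RPKM among 6283 genes, as a description. For IRF1 they were PSME1 (rho 0.688), KCTD11 (0.685) and GEMIN7 (0.683). For IRF3 they were POLD2 (0.657), FAM210B (0.643) and TMOD3 (0.638), and for IRF9 LDHA (0.645), VPS4B (0.631) and GNL3L (0.621). The embryos share depth differences, and the rho of the members with reads in genes was −0.272 for IRF1, −0.0906 for IRF3 and 0.129 for IRF9.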

How the data were processed

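Stranded poly(A) libraries of single embryos were sequenced, per the labels' protocols. FastQC, featureCounts, edgeR and the build ARS-UCD1.2 are named in the submitters' processing notes, with no versions. The authors deposited RPKM per gene and embryo, in 1 table per stage, scaled separately. For morulae the unit was read from the values, since no header names it. Beside these the authors deposited their own log2 fold change, p-value and FDR between genotypes. RPKM values were turned back into reads over the genomic span, and all came out whole within 0.01 reads.

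Genotype, with sex as a term, and sex, with genotype as a term, were tested within stage by limma-trend (limma 3.58.1, R 4.3.3) on log2(RPKM + 1), two-sided, with robust moderation and Benjamini-Hochberg adjustment at 0.05. The filter asked for 1 RPKM in a number of embryos equal to the smaller genotype, and members below that were fitted without this filter and adjusted over the whole table. Fold changes on this scale understate those of low genes. Counting limits are exact Poisson 95% intervals or the level of 3 reads, and cover counting error only. No test crosses the stages.

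The fits were tested on simulated reads. At equal depth they held their error rate about as stated. At the real depths of the morulae more calls were false than the nominal rate, nearly all lower in the shallower knockouts. The morula fit at its real depths therefore failed the limit on false calls that the other simulated fits met. A fit on reads thinned to 43679 per morula was added for it.

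Members and lists were chosen with earlier results of these data known. All members are named, and from each pathway list the 2 genes with the most reads in blastocysts. For filtered members the 3 genes of highest Spearman rho are named. Alternatives are in the closing section.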

Additional observations from a re-analysis of the deposited data

Results flagged for a closer look

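In groups of 4 to 10 embryos, a level was noted where 1 embryo lay far from the nearest other relative to the range of its group. This held in 15 of 24 groups of gene and embryos, and chance gives about 1 in 20. Most of these genes were at 0 in the other embryos of the group, where any single read stands apart. The levels follow in RPKM.

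Control morula 73 stood apart for ISG15 (109.1), MX1 (2.144), MX2 (0.5555) and IFI6 (74.35), on 11, 6, 2 and 27 reads. Knockout morula 21 stood apart for ISG15 (24.54), MX1 (2.652), MX2 (0.6872) and IFI6 (34.07), on 1, 3, 1 and 5 reads, and for IRF2 (0.3041) and IRF9 (4.304), on 1 read each.

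Among knockout blastocysts the embryos that stood apart were 17 for MX1 (0.4876), 31 for MX2 (0.1576), 50 for IFI6 (7.646), 57 for IRF2 (0.1976, on 1 read) and 4 for IRF3 (21.23, on 16 reads). Control blastocysts, with 17 embryos, were not examined in this way.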

How the results depend on the processing

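No member was called under any alternative. The count of genes called between genotypes in blastocysts stayed at 0. In morulae it was 44 with a pseudocount of 0.1, 33 without the sex term, and 1 each with voom on recovered reads and without knockouts 21 and 49, and 0 with reads thinned to equal depth. Of these, the 44, the 33 and the voom call were lower in knockouts, the direction in which simulated morulae gave false calls. Between sexes it was 16 with quantile scaling, 27 without control 12 and knockout 57, and 0 to 1 leaving out each embryo (1 without control 12). Thinning and voom were chosen after seeing the data. The planned edgeR quasi-likelihood test was not run, since the deposited values are RPKM. No paired analysis was possible because embryo numbers are not shared between groups.

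Signs turned for uncalled log2 changes near 0 or resting on few reads. They also turned for IFI6 in blastocysts, where control 12 held 1511 of 1556 reads. The cause was not tested. Between genotypes in blastocysts these were ISG15 −0.012 (pseudocount 0.1) and −0.013 (quality weights), MX2 −0.0096 (quantile scaling) and −0.0093 (no sex term), IRF3 −0.0067 (quantile scaling), −0.25 (without control 12 and knockout 57) and −0.20 (quality weights). IFI6 was 0.45 with voom, 0.46 without those libraries and 0.55 with quality weights, and IRF9 0.14, 0.020 and 0.069. In morulae IRF1 was −0.38 (pseudocount 0.1) and −0.43 (no sex term), IRF2 0.10 (quantile scaling), 0.41 (voom) and 0.033 (no sex term), and IRF3 −0.013 (thinned) and −0.15 (no sex term). IRF9 was −0.14 (pseudocount 0.1), −0.34 (without knockouts 21 and 49) and −0.16 (quality weights). MX2 was 0.40 (voom) and 0.024 (no sex term), and MX1 0.047 (no sex term). Between sexes IRF3 was 0.18 (pseudocount 0.1) and 0.21 (voom), MX2 −0.48 (voom) and IRF2 0.00095 (without control 12 and knockout 57).

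Leaving out each embryo in turn, the changes that turned between genotypes in blastocysts ran from −0.95 to 0.36 for IFI6, −0.21 to 0.016 for IRF9, −0.10 to 0.11 for ISG15, −0.23 to 0.22 for IRF3 and −0.021 to 0.018 for MX2. In morulae they ran from −0.074 to 0.95 for IRF3, −1.05 to 1.18 for IRF1 and −0.56 to 0.80 for IRF9. Between sexes the changes that turned ran from −0.037 to 0.0091 for MX1, −0.010 to 0.00136 for IRF2, −0.41 to 0.039 for IRF3 and −0.0086 to 0.041 for MX2. Depth limits every member here with few reads per embryo, the effectors and IRF2 among them.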
